A study of Mus musculus with 23 samples.

Results

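The genes described here are 45 genes of DNA replication and of S phase, the stretch of the cell cycle in which chromosomes are copied. They were taken by gene symbol from a fixed list. No measured value entered that rule, but the genes were chosen with earlier results of these data known. Each of the 45 was found among the 24063 symbols of each deposited table. All 45 also passed the filter on low counts in every comparison below. By role they divide into origin recognition and loading of the MCM ring (10 genes), helicase activation (6), the sliding clamp and its loader (5), DNA polymerases and primase (8), single-strand binding and joining of Okazaki fragments (4), nucleotide supply (5), chromatin assembly (2), entry into S phase (3) and fork protection (2).

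Before S phase, the origin recognition complex together with Cdc6 and Cdt1 loads the ring of Mcm2 to Mcm7, the core of the replicative helicase, onto DNA. In S phase the ring is switched on by Cdc45, the GINS complex and Mcm10. Polymerases, held on DNA by the sliding clamp PCNA, copy the strands, and nucleotide enzymes such as ribonucleotide reductase supply the building blocks. Many of these genes are targets of E2F transcription factors, which the retinoblastoma protein holds back until cyclin-dependent kinases inactivate it. Terminally differentiated plasma cells have largely left the cell cycle, whereas their precursors, the plasmablasts, still divide.

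RNA was sequenced from 23 libraries of mouse cells labelled CD138+B220-, the surface phenotype of plasma cells and of mouse myeloma cells. The 3 control libraries are bone marrow of mice with IgG1-Cre alone (Cre expressed from an immunoglobulin heavy chain locus), although their labels also give myeloma cells as the cell type. The VQ donor lines, which are VQ-D1, VQ-D2, VQ-D4 and also VQ-D5, carry Vκ*MYC, a MYC transgene under immunoglobulin kappa light chain control, the allele NrasLSL Q61R/+, an oncogenic Nras behind a stop cassette that Cre removes, and IgG1-Cre. Vκ*MYC is present in the line t-VK12653 too, with no Nras allele or Cre in its label. Each line has 4 libraries of cells taken from recipients of transplanted donor cells, so n = 4 counts libraries of 1 donor, and the labels neither say which libraries share a recipient nor give ages. The tumour tables carry a number in their names, which was read as the recipient's and entered alternative fits alone. In replicate order, VQ-D1 and t-VK12653 were sampled from bone marrow, spleen, bone marrow and spleen. VQ-D2 came from spleen, spleen, lymph node and lymph node, VQ-D4 from liver (replicate 2), bone marrow (1), spleen (3) and lymph node (4), and VQ-D5 from bone marrow, bone marrow, lymph node and lymph node. Because nothing in the labels says that replicates are separate animals, the p-values measure the spread between these libraries.

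Total counts per library ran from 2685579 to 10047314, and the 45 genes took 0.112% to 0.506% of them. Myc averaged 43.1 CPM (counts scaled to library depth with TMM factors) in the controls and 592 to 6542 CPM in the lines. All 8 plasma cell markers had reads in every control library, and they summed to 4818 to 7681 CPM there and to 3410 to 8130 CPM in the tumour libraries. Markers of several other cells were higher in the controls than in the lines. The 9 neutrophil markers, all detected in each control, summed to 2835, 7694 and 3291 CPM in the controls and to 3.20 to 1039 CPM in the lines, where VQ-D1 replicate 1 held the 1039. The 7 B cell markers summed to 694 to 1065 CPM in the controls and to 2.45 to 226 CPM in the lines, and the 8 erythroid markers to 59.7 to 357 and to 1.05 to 24.8 CPM. The 7 monocyte and macrophage markers did not follow this, with 173 to 416 CPM in the controls and 15.1 to 1461 in the lines. Control replicate 2 had the most neutrophil, B cell and erythroid marker RNA of the 3 controls and was also the highest control for 42 of the 45 replication genes. The part of other cells in the control levels was not tested, so the counts of calls against control for the 45 genes, and for other lists where they moved, are also given without Control replicate 2.

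Against the controls, replication genes were higher in most lines, and by amounts that differed strongly between lines. In VQ-D5 42 of 45 rose and none fell, with a median log2 fold change of 1.70, while 31.2% of all genes tested rose and 32.5% fell. In VQ-D2 42 rose and none fell (median 1.49), against 29.6% and 27.8% of all genes. VQ-D1 had 33 genes up and 1 down (median 0.82), beside a background of 29.7% in each direction. In t-VK12653 19 rose and 2 fell (median 0.50), beside 28.8% and 28.1%. In VQ-D4 11 rose and 7 fell (median 0.22), with 27.5% and 26.9% of all genes doing so. With all controls, the shares in VQ-D5, VQ-D2, VQ-D1 and t-VK12653 were above the background for rises. Those in VQ-D4 were under it in both directions, but for rises this did not hold without Control replicate 2. The median over all genes lay between -0.04 and 0.02 in these comparisons. Changes were called by edgeR's quasi-likelihood F-test at a Benjamini-Hochberg adjusted p under 0.05. The 1 model over the 23 libraries held group and tissue as terms. The only liver library has a tissue term of its own, so fitted changes in VQ-D4 rest on its other libraries. VQ-D2 has no bone marrow library, so its fitted change from the bone marrow controls relies on site differences fitted in other lines. In bulk RNA, more cells in S phase and more RNA per cell cannot be told apart.

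**Figure D1:**
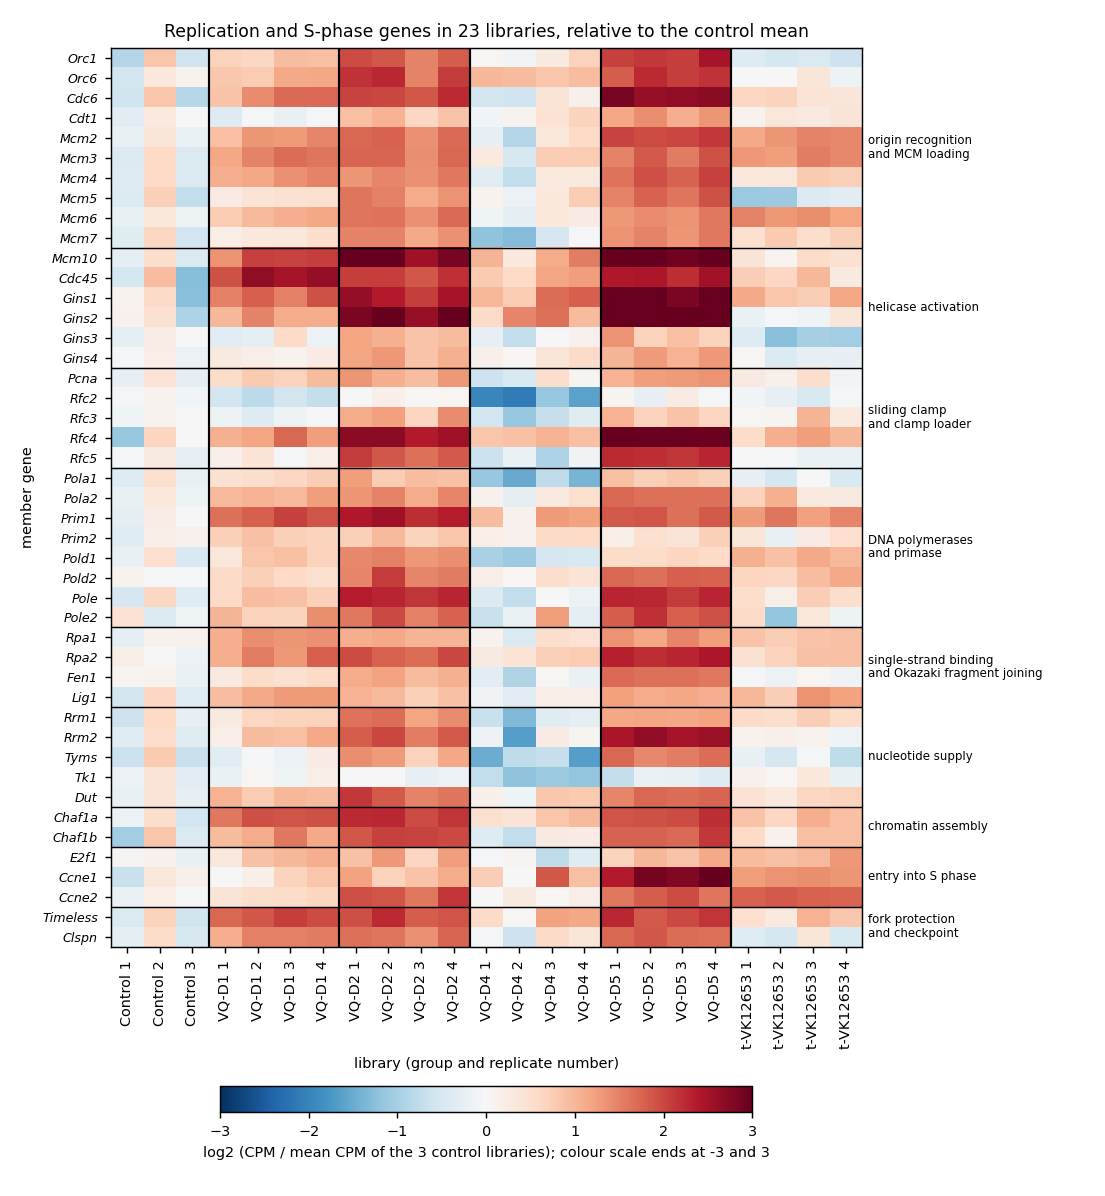
Colour gives the log2 ratio of a library's CPM to the control mean, with 1 row for each of the 45 genes, ordered by role, and 1 column for each of the 23 libraries, and the colour scale ends at -3 and 3. The VQ-D2 and VQ-D5 columns are red through nearly all roles. Medians per library were 1.43 to 1.75 and 1.71 to 1.88 in these lines, and in VQ-D4 ran from -0.25 in the liver library to 0.44. These medians were not taken from the plotted ratio. They are of log2 CPM, with a prior count of 2 added before the log, minus the mean log2 CPM of the controls.

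Without Control replicate 2 35 genes were up and 1 down in VQ-D1, while VQ-D2 and VQ-D5 both had 42 and 0. VQ-D4 had 16 and 3, and t-VK12653 had 26 and 0. Of all genes, 26.3% were then up and 27.5% down in VQ-D1, 27.6% and 27.1% in VQ-D2, and 28.3% and 31.6% in VQ-D5. These shares were 24.9% and 25.5% in VQ-D4 and 25.6% and 26.6% in t-VK12653. In VQ-D4 the 16 rises were 35.6% of the 45 genes, above that background, and the 3 falls were 6.67%, under it. Newly called rises were Mcm5 and Mcm7 in VQ-D1, Orc1, Mcm3, Mcm5, Lig1 and Clspn in VQ-D4, and Cdc6, Mcm4, Mcm7, Mcm10, Cdc45, Dut and Chaf1b in t-VK12653. The 7 falls in VQ-D4 thus dropped to 3, as they also did without VQ-D4 replicate 1. Both falls in t-VK12653, of Mcm5 and Gins3, were lost without Control replicate 2 or t-VK12653 replicate 2. Of these 2 falls, 1 was lost without Control replicate 3, VQ-D1 replicate 1 or 4, VQ-D4 replicate 1 or 3, VQ-D5 replicate 3 or 4, or t-VK12653 replicate 1, 3 or 4.

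Complete separation of the libraries gave a like order. All 4 libraries of a line lay above every control for 42 genes in VQ-D5, where 32.7% of all genes did so, and for 42 in VQ-D2 (33.2%). They did so for 28 genes in VQ-D1 (31.0%), 14 in t-VK12653 (28.5%) and 5 in VQ-D4 (26.4%). All 4 lay below every control for 6 genes in VQ-D4 (26.6%), 1 in VQ-D1 (30%), 1 in t-VK12653 (27.7%) and none in VQ-D2 (32.6%) or VQ-D5 (34.0%).

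**Figure D2:**
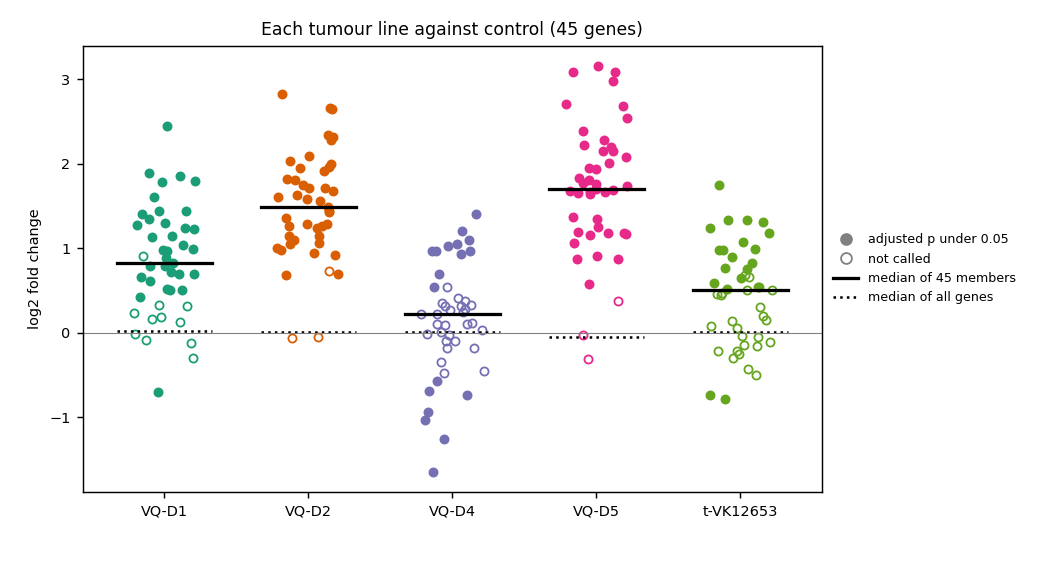
Each point is the log2 fold change of 1 of the 45 genes in 1 line against the 3 controls, filled where the adjusted p was under 0.05, with a solid line at the genes' median and a dotted line at the median of all genes tested. The medians step down from 1.70 in VQ-D5 and 1.49 in VQ-D2 to 0.82 in VQ-D1, 0.50 in t-VK12653 and 0.22 in VQ-D4.

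Promoter sequence was examined because many of these genes are known E2F targets. RefSeq promoter windows of GRCm38.p6 (250 bases before to 50 after a start) were present for 37 of the 45 genes, in 42 windows. An E2F site, searched on both strands as TTTCCCGC, TTTGGCGC, TTTCGCGC or TTTGCCGC, was found in 14 of 42 windows (33.3%), against 2.26% of the 32851 windows of all genes. Overlapping matches, such as TTTGGCGC with TTTCGCGC on the other strand, were counted once per window, and TTTGCCGC was in none of the 42. The CCAAT box was in 52.4% of these windows against 37.4% of all, and the E-box CACGTG, the core that MYC with its partner MAX binds, in 14.3% against 7.15%. The sequence TTTGAA, known as the CHR element of genes expressed in mitosis, was in 11.9% of these windows against 17.9% of all and 81.8% of 11 windows of mitosis genes. The windows had a GC content of 59.4%, against 53.8% over all windows, and a match is a description of the letters and not a bound site. Printed below, with E2F matches in capitals, are the 4 stretches before a start that hold a match and overlap no annotated exon. Those of Gins3, Mcm7, Orc1 and Rfc3 overlap an exon and are not printed.

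Mcm6: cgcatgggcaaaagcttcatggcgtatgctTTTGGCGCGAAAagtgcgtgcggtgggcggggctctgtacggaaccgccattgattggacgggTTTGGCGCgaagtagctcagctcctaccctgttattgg
Mcm5: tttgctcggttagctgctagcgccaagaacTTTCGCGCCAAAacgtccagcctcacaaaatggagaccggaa
Cdc6: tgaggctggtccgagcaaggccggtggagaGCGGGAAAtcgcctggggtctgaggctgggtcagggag
Pola1: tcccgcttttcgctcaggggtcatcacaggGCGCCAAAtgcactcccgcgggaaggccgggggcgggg

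The stretch of Mcm6 lies at chr1:128359715-128359845 on the minus strand and holds 3 matches, of which the leading 2 overlap. That of Mcm5 is chr8:75109326-75109397 on the plus strand with 2 overlapping matches. The stretch of Cdc6 is chr11:98907983-98908050 on the plus strand and that of Pola1 chrX:93632256-93632323 on the minus strand, each with 1 match. That of Cdc6 lies before the RefSeq start of its window but inside the gene as GENCODE M21 places it (chr11:98907801-98923940). None of the 4 stretches overlaps an exon of the annotation.

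Among the genes that load the MCM ring, all 10 rose in VQ-D2 and in VQ-D5, 7 in VQ-D1 and 3 in t-VK12653, and in VQ-D4 1 rose and 1 fell. Without Control replicate 2 the rises of this role were 9 in VQ-D1, 6 in t-VK12653 and 4 in VQ-D4, and none fell in these lines. Mcm6, a subunit of the ring (chr1:128331590-128359664), had the highest mean CPM and, scaled to length, the highest mean TPM of all 45 genes (245). Mcm6 measured 125, 181 and 131 CPM in the controls, 247, 286, 308 and 328 in VQ-D1 and 444, 449, 376 and 470.1 in VQ-D2. It measured 133, 121, 181 and 174 CPM in VQ-D4, 356, 392, 373 and 436 in VQ-D5 and 408, 358, 381 and 331 in t-VK12653. All libraries of VQ-D1, VQ-D2, VQ-D5 and t-VK12653 exceeded every control, while those of VQ-D4 overlapped the controls. The log2 fold change against control was 1.49 (SE 0.16, adjusted p = 1.16e-07) in VQ-D2, and in VQ-D4 it was 0.09 (SE 0.16, adjusted p = 0.643). In t-VK12653 it was 1.31 (SE 0.14, adjusted p = 1.09e-07).

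Mcm5, another subunit of the same ring (chr8:75109569-75128439), took a different course in t-VK12653. Mcm5 measured 36.6, 79.8 and 29.2 CPM in the controls, 57.5, 64.4, 66.4 and 67.2 in VQ-D1 and 147, 138, 106 and 123 in VQ-D2. The VQ-D4 libraries gave 52.5, 42.7, 60.7 and 82.2 CPM, those of VQ-D5 137, 165, 148 and 184 and those of t-VK12653 22.6, 22.9, 36.6 and 38.4. The t-VK12653 values reached into the control range from below, the VQ-D1 and VQ-D4 values overlapped the controls, and all VQ-D2 and VQ-D5 values lay above them. In VQ-D5 the log2 fold change was 1.65 (SE 0.29, adjusted p = 8.96e-05). In t-VK12653 it was -0.78 (SE 0.30, adjusted p = 0.0346), and without Control replicate 2, the highest control, it was -0.26 with an adjusted p of 0.369. Mcm2, Mcm3, Mcm4 and Mcm7 also averaged higher in t-VK12653 than in the controls, and Mcm2 and Mcm3 passed the test with log2 fold changes of 1.24 and 1.33.

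**Figure D3:**
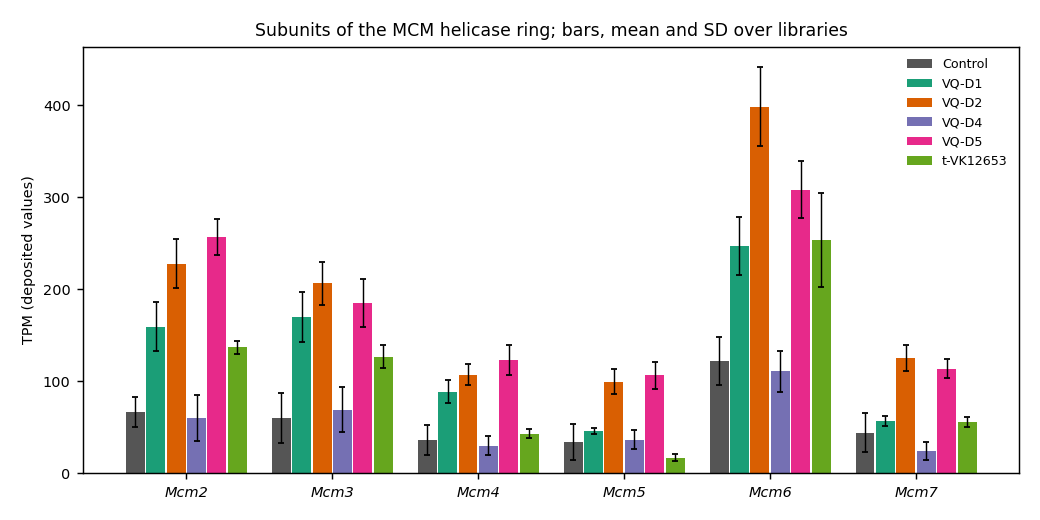
Bars give the mean TPM (scaled by the authors to depth and gene length) of the ring subunits Mcm2 to Mcm7 in each of the 6 groups, with SD over 3 control or 4 line libraries. Mcm6 is the highest bar in every group, and Mcm5 in t-VK12653 is the lowest bar of all.

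The subunits of the ring, which assemble in equal numbers, did not have equal RNA levels per length. In the controls Mcm6 averaged 122 ± 26.3 TPM (SD, n = 3) and Mcm5 34.4 ± 19.6. In t-VK12653 Mcm6 averaged 253 ± 51.2 TPM and Mcm5 17.1 ± 3.57 (SD, n = 4). The ratio of the highest to the lowest subunit mean was 14.9 in t-VK12653, 5.40 in VQ-D1, 4.63 in VQ-D4, 4.01 in VQ-D2, 3.54 in the controls and 2.90 in VQ-D5. The lowest subunit was Mcm5 except in VQ-D4, where it was Mcm7.

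Orc6, a subunit of the origin recognition complex, had the smallest p among the lines within its role. Orc6 measured 5.19, 9.55 and 8.14 CPM in the controls, 13.3, 13, 16.9 and 17 in VQ-D1 and 34.5, 36.7, 21.3 and 32.8 in VQ-D2. In VQ-D4 it stood at 15.2, 14.7, 13.6 and 14.4 CPM, in VQ-D5 at 27.1, 35.8, 32.1 and 34.2 and in t-VK12653 at 7.74, 7.71, 9.84 and 6.85. Every library of the 4 VQ lines was above all controls, and t-VK12653 overlapped them. The log2 fold change was 2.15 (SE 0.24, adjusted p = 7.7e-08) in VQ-D5 and 0.96 (SE 0.26, adjusted p = 0.00327) in VQ-D4. Cdc6, which helps to load the ring, averaged 16.7 ± 11.5 CPM (SD, n = 3) in the controls, 109.5 ± 7.65 in VQ-D5 and 15.7 ± 5.27 in VQ-D4 (SD, n = 4). Cdt1, its partner in loading, averaged 49.3 ± 10.6 CPM in the controls and 43.9 ± 4.82 in VQ-D1, where its log2 fold change was -0.29 (SE 0.16, adjusted p = 0.115). Mcm7 fell in VQ-D4, the log2 fold change being -0.74 (SE 0.27, adjusted p = 0.026), and this call was lost without Control replicate 2 (-0.31, adjusted p = 0.237) and without VQ-D4 replicate 1.

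Helicase activation was the role with the highest median rise in VQ-D5 (2.69 over its 6 genes) and 4 of the 6 rose in VQ-D4. In t-VK12653 1 of its genes rose and 1 fell, and without Control replicate 2 there were 3 rises and no fall. Mcm10, which joins the helicase as it is activated, had the highest mean CPM of the role. Mcm10 measured 14.6, 25.9 and 13.1 CPM in the controls, 45.4, 74.6, 72.4 and 75.4 in VQ-D1 and 152, 144, 104 and 129 in VQ-D2. Its VQ-D4 values were 36, 22.1, 38.9 and 51.8 CPM, against 153, 157, 133 and 159 in VQ-D5 and 23.4, 18.8, 26.1 and 24.4 in t-VK12653. The VQ-D1, VQ-D2 and VQ-D5 libraries all exceeded the controls, and 1 VQ-D4 library, from liver, lay within their range. Tested against the controls, the log2 fold change was 3.09 (SE 0.24, adjusted p = 6.81e-10) in VQ-D5, 2.82 (SE 0.26, adjusted p = 1.85e-08) in VQ-D2 and 1.2 (SE 0.25, adjusted p = 0.000498) in VQ-D4. In t-VK12653 it was 0.31 (SE 0.25, adjusted p = 0.3), and 0.63 with an adjusted p of 0.0353 without Control replicate 2.

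Gins2, a subunit of the GINS complex, had the smallest p among the lines within this role. Gins2 measured 4.86, 6.14 and 2.36 CPM in the controls, 8.88, 12.5, 9.66 and 9.62 in VQ-D1 and 31.5, 35.6, 27.3 and 35.4 in VQ-D2. It measured 6.68, 12.4, 13.9 and 8.63 CPM in VQ-D4, 41.2, 39, 40.7 and 41.3 in VQ-D5 and 3.87, 4.33, 4.07 and 5.76 in t-VK12653. All VQ libraries were above all controls, and the t-VK12653 libraries lay inside the control range. On the log2 scale the change against control was 3.15 (SE 0.25, adjusted p = 5.47e-10) in VQ-D5 and 0.93 (SE 0.29, adjusted p = 0.0102) in VQ-D4, the latter lost without Control replicate 3 and in bone marrow libraries alone. Cdc45, which binds the ring in the active helicase, averaged 13.9 ± 10.9 CPM in the controls and 76.5 ± 16.9 in VQ-D1, the highest mean of the 6 groups. Gins3 fell in t-VK12653, from 6.73 ± 1.17 to 3.67 ± 1.03 CPM, the log2 fold change being -0.74 (SE 0.31, adjusted p = 0.0471). That call was lost under 16 of the alternative settings.

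Of the sliding clamp and its loader, 4 of 5 genes rose in VQ-D2 and in VQ-D5, 2 rose and 1 fell in VQ-D1, and 1 rose and 2 fell in VQ-D4. Pcna encodes the clamp that holds polymerases on DNA. Pcna measured 31.8, 49.8 and 30.7 CPM in the controls, 54.5, 64.4, 60.4 and 72.3 in VQ-D1 and 93.7, 79.1, 71.2 and 92.8 in VQ-D2. The VQ-D4 libraries gave 24.4, 27.4, 53.5 and 39.7 CPM, those of VQ-D5 76.9, 88.8, 90.4 and 95 and those of t-VK12653 44.9, 41.8, 53.9 and 35.1. The VQ-D1, VQ-D2 and VQ-D5 values stood above all controls, and the VQ-D4 and t-VK12653 values overlapped them. The fitted log2 change of Pcna against control was 1.16 (SE 0.23, adjusted p = 0.000144) in VQ-D5 and 0.66 (SE 0.22, adjusted p = 0.0148) in VQ-D1, where the call was lost without Control replicate 1 or 3.

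The 4 small clamp loader subunits among these genes moved apart. Rfc2 measured 51.2, 56.3 and 49.4 CPM in the controls, 35.3, 30.1, 35.8 and 31.8 in VQ-D1 and 52.8, 57.9, 53.3 and 54.1 in VQ-D2. In VQ-D4 it stood at 13.5, 12.2, 23.7 and 17.3 CPM, in VQ-D5 at 55.6, 44.3, 62.2 and 50.9 and in t-VK12653 at 49.4, 43.8, 38 and 50.7. The VQ-D1 and VQ-D4 libraries were all below the controls, and the other 3 lines overlapped them. Rfc2 fell by 0.70 on the log2 scale in VQ-D1 (SE 0.16, adjusted p = 0.000586), against the direction of the other called genes of its role, and its log2 fold change in VQ-D4 was -1.64 (SE 0.19, adjusted p = 1.91e-07). Its exons overlap 952 bases of Lat2 on the other strand, and reads of such pairs cannot be told apart where counting ignores strand.

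Rfc4 went the other way from Rfc2 in VQ-D4. Rfc4 measured 5.84, 19.8 and 12.6 CPM in the controls, 26.9, 28.8, 42 and 30.4 in VQ-D1 and 83.3, 82.6, 65.9 and 74.6 in VQ-D2. Its VQ-D4 values were 22.7, 23.4, 26.3 and 23.7 CPM, against 114, 98.9, 99.4 and 98 in VQ-D5 and 18.7, 27.3, 30.2 and 25.2 in t-VK12653. Every VQ library exceeded every control, and 3 of 4 t-VK12653 libraries did. The change of Rfc4 against control, in log2 units, was 3.09 (SE 0.26, adjusted p = 1.82e-09) in VQ-D5 and 0.96 (SE 0.28, adjusted p = 0.00672) in VQ-D4, lost there in bone marrow libraries alone. For Rfc5 the VQ-D2 libraries measured 71.8, 60.1, 52.4 and 59.97 CPM and those of VQ-D5 78.8, 76.7, 73.5 and 80.7, above 15.9, 20.1 and 13.9 in the controls. In VQ-D1 it measured 18.5, 22.1, 16 and 18.8 CPM, in VQ-D4 10.7, 14.5, 8.76 and 15.4 and in t-VK12653 16.8, 16.2, 14.6 and 14.5, all overlapping the controls. Its log2 fold change was 2.20 (SE 0.18, adjusted p = 5.66e-10) in VQ-D5 and -0.57 (SE 0.21, adjusted p = 0.0241) in VQ-D4, the latter lost without Control replicate 2 or without VQ-D4 replicate 1 or 3.

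**Figure D4:**
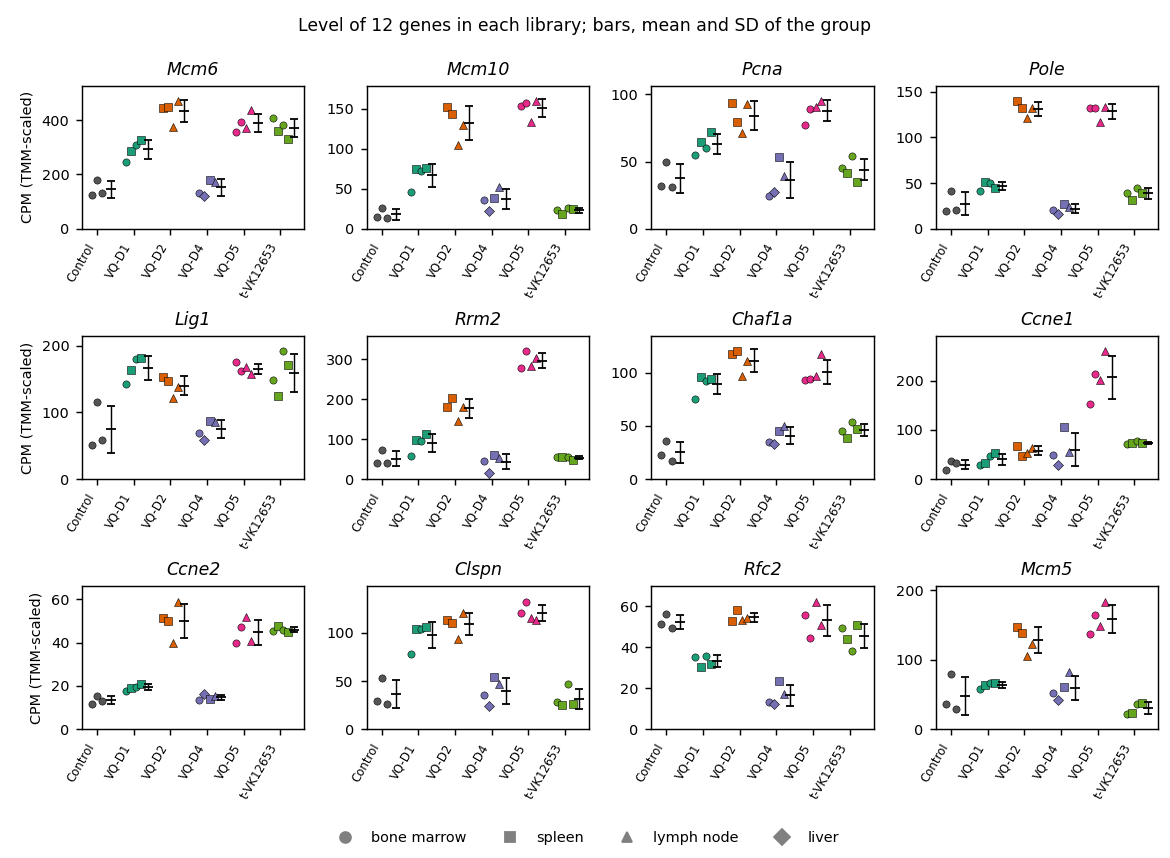
Panels give the CPM of 12 of the 45 genes in each of the 23 libraries, with markers for the site and bars for the group mean and SD, and each vertical axis has its own range from 0. Mcm6 and Ccne2 are high in t-VK12653, Mcm5 is low there, Rfc2 is low in VQ-D1 and VQ-D4, and Ccne1 is high in VQ-D5.

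Among the 8 polymerase and primase genes, all rose in VQ-D2, 7 in VQ-D1 and in VQ-D5 and 5 in t-VK12653, while in VQ-D4 Prim1 rose and Pola1 and Pold1 fell. Pole encodes the catalytic subunit of polymerase epsilon, which copies the leading strand. Pole measured 19.1, 41.6 and 21 CPM in the controls, 41, 51.4, 49.9 and 44.6 in VQ-D1 and 139.6, 132, 121 and 133 in VQ-D2. It measured 20.4, 16.2, 26.9 and 24.3 CPM in VQ-D4, 132, 132, 117 and 133 in VQ-D5 and 39.6, 31, 45.1 and 39.5 in t-VK12653. The VQ-D2 and VQ-D5 libraries were all above the controls, and those of the other 3 lines overlapped them. Against control the log2 fold change was 2.31 (SE 0.22, adjusted p = 2.47e-08) in VQ-D2 and 2.28 (SE 0.20, adjusted p = 3.41e-09) in VQ-D5. In t-VK12653 it was 0.51 (SE 0.20, adjusted p = 0.0377), a call lost under 17 of the alternative settings.

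Pold1 and Pold2 encode the catalytic and an accessory subunit of polymerase delta, which copies the lagging strand. Pold2 measured 38.3, 34.8 and 34.4 CPM in the controls, 53.3, 59.1, 53.8 and 50.3 in VQ-D1 and 99.2, 154, 98.3 and 105 in VQ-D2. The VQ-D4 libraries gave 41.3, 37.5, 51.6 and 48 CPM, those of VQ-D5 118, 113, 125 and 122 and those of t-VK12653 56.1, 54.7, 68.5 and 78.1. All lines but VQ-D4 lay wholly above the controls, and 1 VQ-D2 library, from spleen, stood at 154 CPM. Tested against the controls, the log2 fold change of Pold2 was 1.58 (SE 0.18, adjusted p = 1.49e-07) in VQ-D2 and 0.75 (SE 0.16, adjusted p = 0.000373) in t-VK12653. Pold1 measured 23.7, 38.9 and 20.2 CPM in the controls, 35, 48.9, 51.7 and 44.5 in VQ-D1 and 74.9, 78.1, 67.7 and 72.7 in VQ-D2. In VQ-D4 it stood at 14, 13, 19.5 and 20.1 CPM, in VQ-D5 at 40.7, 40.6, 43.2 and 41.8 and in t-VK12653 at 57.6, 51, 60.7 and 54. For this subunit VQ-D4 lay wholly below the controls, and VQ-D2, VQ-D5 and t-VK12653 lay wholly above them. Its log2 fold change was 1.36 (SE 0.21, adjusted p = 1.17e-05) in VQ-D2, 0.99 (SE 0.19, adjusted p = 0.000116) in t-VK12653 and -0.69 (SE 0.22, adjusted p = 0.0102) in VQ-D4. The fall in VQ-D4 was lost without Control replicate 2 (-0.39, adjusted p = 0.104) and without VQ-D4 replicate 1.

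Polymerase alpha and primase start each new strand. Pola1 measured 24.3, 44 and 27.1 CPM in the controls, 43.9, 45.8, 49.1 and 53.4 in VQ-D1 and 75.8, 53.9, 60.3 and 58.7 in VQ-D2. Its VQ-D4 values were 14.5, 11.1, 18.8 and 12.2 CPM, against 59.2, 52.6, 55.5 and 51.9 in VQ-D5 and 26.7, 22.2, 31.5 and 23.3 in t-VK12653. The catalytic subunit gene Pola1 was thus below every control in VQ-D4 and above every control in VQ-D2 and VQ-D5. Its log2 fold change was -1.03 (SE 0.22, adjusted p = 0.000458) in VQ-D4 and 1.05 (SE 0.21, adjusted p = 0.000244) in VQ-D2. Prim1 measured 10.7, 15 and 13.1 CPM in the controls, 41, 44.8, 53.8 and 47.8 in VQ-D1 and 68.8, 75.8, 59.9 and 66.2 in VQ-D2. It measured 24.9, 14.2, 31.1 and 29.7 CPM in VQ-D4, 46.5, 48.2, 40.7 and 46 in VQ-D5 and 31.6, 39.3, 30.2 and 35.9 in t-VK12653. Prim1, the catalytic primase subunit, was above the controls in every library of VQ-D1, VQ-D2, VQ-D5 and t-VK12653 and in 3 of 4 of VQ-D4, the liver library being the other. Its log2 fold change was 2.33 (SE 0.17, adjusted p = 2.63e-10) in VQ-D2, 1.10 (SE 0.17, adjusted p = 1.25e-05) in VQ-D4 and 1.34 (SE 0.16, adjusted p = 3.37e-07) in t-VK12653. Prim2, its partner, averaged 23.9 ± 4.76 CPM in the controls, 40.1 ± 2.67 in VQ-D1, 32.7 ± 5.06 in VQ-D5 and 31.4 ± 5.22 in VQ-D4.

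All 4 genes of single-strand binding and fragment joining rose in VQ-D1, VQ-D2 and VQ-D5, 3 rose in t-VK12653, and none passed the test in VQ-D4 by edgeR unless Control replicate 2 was left out, when Lig1 did (0.53, adjusted p = 0.0135). Lig1 encodes the ligase that seals Okazaki fragments. Lig1 measured 50.6, 115 and 58.3 CPM in the controls, 143, 163, 179.99 and 181 in VQ-D1 and 154, 147, 122 and 137 in VQ-D2. The VQ-D4 libraries gave 69.4, 58.5, 86.3 and 85.7 CPM, those of VQ-D5 175, 161, 168 and 158 and those of t-VK12653 148, 124, 191 and 171. All libraries outside VQ-D4 exceeded the controls, of which replicate 2 was the highest, and VQ-D4 lay within the control range. On the log2 scale the change against control was 1.15 (SE 0.22, adjusted p = 0.000206) in VQ-D1 and 1.07 (SE 0.22, adjusted p = 0.000391) in t-VK12653.

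Fen1, the nuclease that trims these fragments, was highest in VQ-D5. Fen1 measured 69.4, 71.3 and 57.3 CPM in the controls, 79, 97.2, 90.9 and 99.8 in VQ-D1 and 142, 153, 128 and 138 in VQ-D2. In VQ-D4 it stood at 52.5, 35.3, 67.1 and 57.9 CPM, in VQ-D5 at 214, 207, 207 and 196 and in t-VK12653 at 64.7, 58.5, 68.5 and 61.7. The VQ-D1, VQ-D2 and VQ-D5 libraries were above every control, in rising order without overlap, and t-VK12653 lay within the control range. The log2 fold change was 1.67 (SE 0.11, adjusted p = 3.57e-11) in VQ-D5, and in t-VK12653 it was -0.11 (SE 0.11, adjusted p = 0.434). Rpa1 measured 48.3, 65.1 and 64.6 CPM in the controls, 126, 156, 149 and 154 in VQ-D1 and 127, 129.8, 119.9 and 121 in VQ-D2. Its VQ-D4 values were 64.2, 44.3, 85 and 80.3 CPM, against 150.4, 132, 165 and 141 in VQ-D5 and 107, 98.9, 108 and 109 in t-VK12653. Rpa1, the large subunit of the single-strand binding complex, exceeded all controls in every line but VQ-D4. Its log2 fold change was 1.23 (SE 0.12, adjusted p = 1.8e-08) in VQ-D1 and 1.25 (SE 0.12, adjusted p = 1.12e-08) in VQ-D5.

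Among the nucleotide genes 4 of 5 rose in VQ-D2 and in VQ-D5 and 3 in VQ-D1, and in VQ-D4 Dut rose while Tyms and Tk1 fell. Rrm2 encodes the S-phase subunit of ribonucleotide reductase, which turns ribonucleotides into deoxyribonucleotides. Rrm2 measured 39.6, 73 and 39.7 CPM in the controls, 58.5, 97.5, 94.3 and 112 in VQ-D1 and 179, 202, 146 and 180.3 in VQ-D2. It measured 44.7, 16.2, 60.7 and 53.7 CPM in VQ-D4, 279, 319.96, 285 and 303 in VQ-D5 and 54.4, 56, 54.6 and 47.2 in t-VK12653. VQ-D5 lay above every other library and VQ-D2 above all that remained, whereas the other 3 lines overlapped the controls. The change of Rrm2 against control, in log2 units, was 2.54 (SE 0.21, adjusted p = 2.96e-09) in VQ-D5, 1.67 (SE 0.23, adjusted p = 4.59e-06) in VQ-D2 and -0.03 (SE 0.23, adjusted p = 0.918) in VQ-D4. Rrm1, the large subunit, was highest in VQ-D2 instead. Rrm1 measured 56.1, 131 and 72.2 CPM in the controls, 104, 133, 137 and 139 in VQ-D1 and 269, 277, 196 and 229 in VQ-D2. The VQ-D4 libraries gave 54.2, 34.7, 67.5 and 71 CPM, those of VQ-D5 194, 197, 193 and 198 and those of t-VK12653 128, 125, 145 and 127. Only VQ-D2 and VQ-D5 were clear of the controls, of which replicate 2 stood at 131 CPM. Against control the log2 fold change of Rrm1 was 1.43 (SE 0.23, adjusted p = 3.55e-05) in VQ-D2, and that in VQ-D1, 0.51 (SE 0.21, adjusted p = 0.0397), was lost under 19 of the alternative settings.

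Tyms makes thymidylate, and Dut removes dUTP from the nucleotide pool. Tyms measured 7.78, 20.8 and 7.62 CPM in the controls, 9.62, 11.5, 10.7 and 14.2 in VQ-D1 and 31.5, 29.1, 19.4 and 27.2 in VQ-D2. In VQ-D4 it stood at 4.28, 7.12, 7.46 and 3.84 CPM, in VQ-D5 at 39.8, 32.6, 35 and 38.5 and in t-VK12653 at 10.3, 8.46, 11.5 and 7.13. VQ-D5 lay above all controls and VQ-D4 below all of them, with replicate 2 the highest control. Tested against the controls, the log2 fold change of Tyms was 1.69 (SE 0.30, adjusted p = 3.71e-05) in VQ-D5 and -1.26 (SE 0.36, adjusted p = 0.00511) in VQ-D4, where it was -0.66 (adjusted p = 0.0841) without Control replicate 2. Dut measured 26.3, 39.9 and 25.7 CPM in the controls, 62.7, 51.9, 60.8 and 59.4 in VQ-D1 and 134, 109.95, 85.5 and 93.2 in VQ-D2. Its VQ-D4 values were 34.3, 28.2, 53.8 and 52.4 CPM, against 84.6, 100.3, 97.7 and 103 in VQ-D5 and 41.7, 37.2, 47.2 and 49.4 in t-VK12653. VQ-D1, VQ-D2 and VQ-D5 exceeded all controls, and VQ-D4 and t-VK12653 overlapped them. On the log2 scale the change of Dut against control was 1.71 (SE 0.22, adjusted p = 8.22e-07) in VQ-D2 and 0.54 (SE 0.21, adjusted p = 0.0357) in VQ-D4, lost under 14 of the alternative settings. Tk1, the thymidine salvage kinase, did not rise in any line, with means of 32.5 ± 8.87 CPM in the controls, 25.2 ± 3.98 in VQ-D5 and 15.7 ± 2.49 in VQ-D4 (log2 fold change -0.94 (SE 0.21, adjusted p = 0.000798)).

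Chaf1a, the large subunit of the chromatin assembly factor that places histones on new DNA, rose in all 5 lines. Chaf1a measured 22.4, 36.2 and 16.8 CPM in the controls, 75, 95.5, 92.3 and 93.9 in VQ-D1 and 118, 119.95, 96.8 and 111 in VQ-D2. It measured 35, 32.7, 44.8 and 49.6 CPM in VQ-D4, 93.2, 94.1, 97.1 and 117 in VQ-D5 and 45.1, 38.9, 53.3 and 47.2 in t-VK12653. VQ-D4 overlapped the highest control in 2 libraries, and the other lines were clear of the controls. The fitted log2 change of Chaf1a against control was 2.03 (SE 0.22, adjusted p = 9.38e-08) in VQ-D2, 0.82 (SE 0.20, adjusted p = 0.00134) in t-VK12653 and 0.69 (SE 0.22, adjusted p = 0.00989) in VQ-D4, lost there without Control replicate 3. The exons of Chaf1a overlap Ubxn6 on the other strand over 4648 bases, the longest of the overlaps that 13 of the 45 genes have with another protein-coding gene.

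The genes of entry into S phase did not follow the order of the rest. Ccne1 and Ccne2 encode the E-type cyclins that activate CDK2, and E2f1 encodes an activating E2F factor. Ccne1 measured 18.5, 36.8 and 32.6 CPM in the controls, 29.4, 32.6, 46.8 and 52.3 in VQ-D1 and 67.7, 47.4, 53.1 and 63.4 in VQ-D2. The VQ-D4 libraries gave 48.9, 29.4, 106 and 55 CPM, those of VQ-D5 152, 213, 201 and 259 and those of t-VK12653 70.3, 74.1, 76.7 and 72.9. VQ-D5 lay above every other library, t-VK12653 above the controls without overlap, and the spleen library of VQ-D4 stood at 106 CPM beside 29.4 to 55 in the others of that line. The change of Ccne1 against control, in log2 units, was 2.71 (SE 0.30, adjusted p = 3.67e-07) in VQ-D5, 1.18 (SE 0.29, adjusted p = 0.0022) in t-VK12653 and 1.05 (SE 0.32, adjusted p = 0.00927) in VQ-D4. Ccne2 measured 11.7, 15.3 and 13.1 CPM in the controls, 17.5, 19.3, 19.6 and 21 in VQ-D1 and 51.2, 49.8, 39.95 and 58.9 in VQ-D2. In VQ-D4 it stood at 13.5, 16.1, 13.9 and 15.4 CPM, in VQ-D5 at 39.8, 47.1, 51.9 and 40.6 and in t-VK12653 at 45.4, 47.8, 45.8 and 45. For this cyclin t-VK12653 stood with VQ-D2 and VQ-D5, far above the controls, and VQ-D4 overlapped them. Against control the log2 fold change of Ccne2 was 1.82 (SE 0.18, adjusted p = 2.72e-08) in VQ-D2, 1.74 (SE 0.16, adjusted p = 1.06e-08) in t-VK12653 and 0.50 (SE 0.17, adjusted p = 0.0132) in VQ-D1. E2f1 averaged 18.1 ± 2.31 CPM in the controls, 37.1 ± 5.33 in t-VK12653 and 15.4 ± 3.82 in VQ-D4.

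Clspn and Timeless protect stalled forks and pass the signal to the checkpoint kinase. Clspn measured 29.8, 52.9 and 26 CPM in the controls, 77.7, 104, 104 and 106 in VQ-D1 and 114, 110.2, 93.9 and 121 in VQ-D2. Its VQ-D4 values were 35.5, 23.7, 53.8 and 46.7 CPM, against 120.3, 132, 116 and 114 in VQ-D5 and 28.2, 25, 46.8 and 26.6 in t-VK12653. VQ-D1, VQ-D2 and VQ-D5 were above all controls, while VQ-D4 and t-VK12653 overlapped them. The log2 fold change of Clspn was 1.77 (SE 0.25, adjusted p = 3.95e-06) in VQ-D5, 1.44 (SE 0.24, adjusted p = 4.92e-05) in VQ-D1 and -0.21 (SE 0.25, adjusted p = 0.492) in t-VK12653. Timeless averaged 20.1 ± 10.4 CPM in the controls, 84.4 ± 10.5 in VQ-D5 and 32.5 ± 7.37 in t-VK12653, where its call was lost under 23 of the alternative settings.

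All 45 genes differed among the 5 tumour lines, as did 88.1% of all genes tested. The highest line mean belonged to VQ-D5 for 27 genes, to VQ-D2 for 15, to VQ-D1 for 2 and to t-VK12653 for 1. The lowest belonged to VQ-D4 for 30, to t-VK12653 for 13 and to VQ-D1 for 2. VQ-D2 and VQ-D5 were the top pair for 35 genes. The ratio of the highest to the lowest line mean ran from 1.47 to 9.0, with a median of 3.72. Spread within groups was smallest in VQ-D5, with a median coefficient of variation of 8.78%, and was 11.6% in VQ-D2, 12.4% in VQ-D1, 14.2% in t-VK12653, 25.4% in VQ-D4 and 32.8% in the controls.

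The spread had a shape within lines as well. VQ-D1 replicate 1, from bone marrow and with the most neutrophil marker RNA of its line (1039 CPM beside 17.0 to 285), was the lowest of its line for 34 genes. VQ-D4 replicate 2, the liver library, which alone held over 5 CPM of hepatocyte markers (33.3 CPM), was the lowest of its line for 34. VQ-D2 replicate 3, from lymph node, was the lowest of its line for 40, with 7.18 CPM of neutrophil markers. The part of other cells in these values was not tested.

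The 4 VQ lines were compared in pairs, because the study's title divides such lines into clusters that the labels do not assign. VQ-D4 and VQ-D5 were farthest apart: 44 genes were higher in VQ-D5 and none lower, with a median log2 difference of 1.44, while 29.6% of all genes were higher and 29.1% lower. The gene left over was Prim2, at 32.7 ± 5.06 CPM in VQ-D5 and 31.4 ± 5.22 in VQ-D4. VQ-D4 was also lower than VQ-D2 for 43 genes and higher for none (median -1.30, background 29.4% lower and 27.6% higher). Tyms had the largest difference between VQ-D5 and VQ-D4, 2.95 (SE 0.31, adjusted p = 3.64e-08), and Pole that between VQ-D4 and VQ-D2, -2.49 (SE 0.20, adjusted p = 7.91e-10). The share of genes apart in these pairs was above that of all genes.

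VQ-D1 lay between them. Against VQ-D1, 30 genes were lower and 2 higher in VQ-D4 (median -0.77, background 20.4% and 20.8%). In VQ-D5 31 were higher and none lower (median 0.90, background 29.7% and 28.8%), and in VQ-D2 28 were higher and 1 lower (median 0.66, background 26.5% and 24.8%). Pola1 had the largest fall from VQ-D1 to VQ-D4, -1.64 (SE 0.19, adjusted p = 6.25e-07). Cdt1 and Ccne1 were the 2 genes higher in VQ-D4, with log2 differences of 0.52 (SE 0.15, adjusted p = 0.00782) and 0.73 (SE 0.26, adjusted p = 0.0323). Their count dropped to 1 without VQ-D1 replicate 1 or 2 or VQ-D4 replicate 3 or 4. Rfc5 had the largest rise from VQ-D1 to VQ-D2, 1.68 (SE 0.15, adjusted p = 5.19e-09). Rpa1 was the gene lower in VQ-D2, by -0.29 (SE 0.11, adjusted p = 0.0318), a call lost without VQ-D1 replicate 2, 3 or 4 or VQ-D2 replicate 1, and without Control replicate 2 the count of lower genes was 2.

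VQ-D2 and VQ-D5 were closest. Of the 45 genes 12 were higher in VQ-D5 and 2 lower (median 0.16), beside 20.0% and 18.6% of all genes, so the share higher was above the background and the share lower was under it. Ccne1 had the largest rise, 1.98 (SE 0.25, adjusted p = 6.01e-06). Rrm2, Cdc6 and Gins1 followed with log2 differences of 0.87, 0.77 and 0.70. The genes that were lower in VQ-D5 were Pold1, by -0.78 (SE 0.16, adjusted p = 0.00055), and Prim1, by -0.51 (SE 0.12, adjusted p = 0.00213). With the 4 libraries of a line summed by the recipient number in the table names, 2 genes were higher and 1 lower. The 12 rises became 5 without VQ-D2 replicate 3, the lowest library of its line for most genes, and 7 without VQ-D5 replicate 1.

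**Figure D5:**
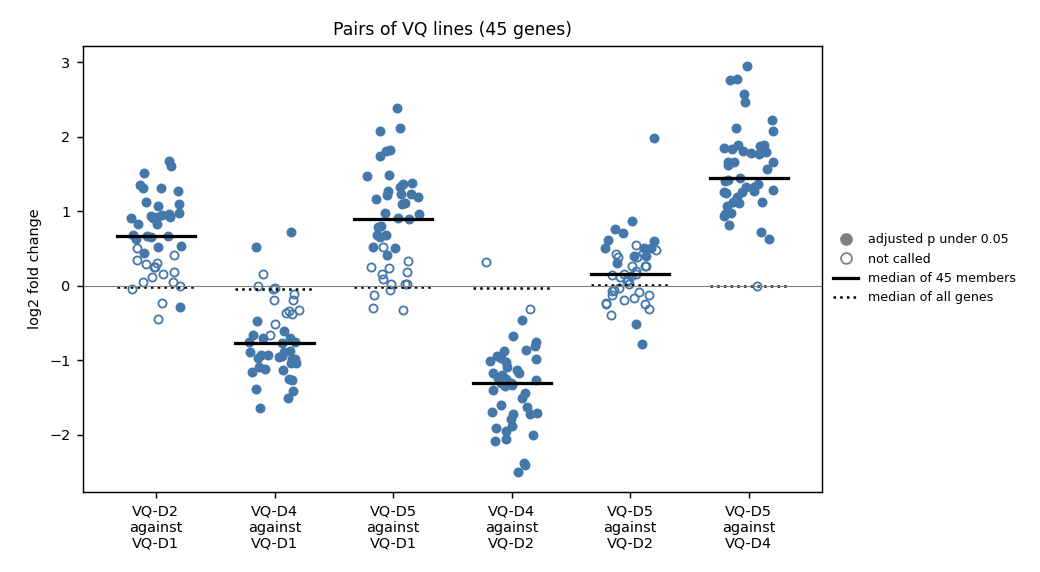
Each point is the log2 difference of 1 of the 45 genes between a pair of VQ lines, filled where the adjusted p was under 0.05, with a solid line at the genes' median and a dotted line at that of all genes tested. The medians run from -1.30 for VQ-D4 against VQ-D2 to 1.44 for VQ-D5 against VQ-D4, and that of VQ-D5 against VQ-D2 is 0.16.

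Libraries of a pair separated completely for 44 genes in VQ-D5 above VQ-D4 (28.5% of all genes), 43 in VQ-D4 below VQ-D2 (27.9%) and 30 in VQ-D4 below VQ-D1 (19.3%). They did so for 33 in VQ-D5 above VQ-D1 (30%) and 30 in VQ-D2 above VQ-D1 (27.7%), and for none in the other direction (28.7% and 26.0%). In VQ-D5 18 were wholly above VQ-D2 (21.8%) and 2 wholly below (20.2%).

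With the donor line as the replicate of the genotype, 4 VQ line sums were compared with the 3 controls. Of the 45 genes 14 rose and none fell, against 13.7% and 9.27% of all genes, and the median log2 fold change was 1.43 beside 0.19 over all genes. The 14 were Orc6, Mcm3, Mcm10, Cdc45, Gins1, Gins2, Rfc4, Pola2, Prim1, Rpa1, Rpa2, Dut, Chaf1a and Timeless. Mcm10 had the highest log2 fold change of them, 2.59 (SE 0.58, adjusted p = 0.0195), followed by Gins2 with 2.55 (SE 0.69, adjusted p = 0.036). Prim1 had the lowest adjusted p, with 1.98 (SE 0.40, adjusted p = 0.0138). The count fell to 0 without Control replicate 1 or 3 and to 3 without Control replicate 2, which leaves 2 controls. It was 2 without VQ-D2, 3 without VQ-D5 and 31 without VQ-D4.

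The mean of the 4 VQ lines was set against t-VK12653, the line with Vκ*MYC and no Nras allele, which rests on 1 donor. Of the 45 genes 31 were higher in the mean of the VQ lines and 6 lower (median 0.67), against 29.6% and 31.6% of all genes. The mean joins unlike lines, and VQ-D4 went the other way for most genes. Its mean was the lowest of the 5 tumour lines, t-VK12653 included, for 30 of the 45. The p-values of this comparison measure the spread between libraries and not that between the VQ lines. All 6 helicase activation genes were higher in the VQ lines, with Gins2 at 2.10 (SE 0.19, adjusted p = 4.73e-09) and Mcm10 at 1.93 (SE 0.17, adjusted p = 7.06e-09). Orc1 and Mcm5 followed with log2 differences of 1.73 and 1.67. The 6 genes higher in t-VK12653 were Ccne2, by -0.73 (SE 0.10, adjusted p = 2.79e-06) as VQ minus t-VK12653, and Pold1, Tk1, E2f1, Rfc2 and Mcm6, with differences of -0.51 to -0.33. Without t-VK12653 replicate 1 they were 3. Levels of Mcm2, Mcm3 and Mcm7 differed by -0.09, -0.03 and -0.01, which did not pass the test, so within 1 ring the difference from t-VK12653 ran from -0.33 for Mcm6 to 1.67 for Mcm5.

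Neither spleen nor lymph node made a called difference from bone marrow in these genes. Lymph node against spleen, and liver, were not tested. Between spleen and bone marrow, with the line in the fit, 0 of 45 genes passed the test by edgeR or by DESeq2, as did 0% of all genes by edgeR, and 4 had an unadjusted p under 0.05, all higher in spleen. Log2 differences ran from -0.26 to 0.37. Between lymph node and bone marrow 0 of 45 passed by edgeR or by DESeq2, where 0.0155% of all genes did by edgeR, and 0 had an unadjusted p under 0.05, with differences from -0.27 to 0.22. Within lines, the median over the 45 genes of spleen minus bone marrow was 0.15 in VQ-D1, -0.11 in t-VK12653 and 0.40 in VQ-D4, the last from 1 library a site. Lymph node minus bone marrow had medians of 0.39 in VQ-D4, again from 1 library a site, and 0.03 in VQ-D5. Lymph node minus spleen had a median of -0.19 in VQ-D2 (-0.02 over all genes), with 41 genes lower and 4 higher, and -0.01 in VQ-D4. The VQ-D2 difference lay mostly in 1 lymph node library, replicate 3. Its median log2 level of the 45 genes relative to the controls was 1.43, against 1.66 in lymph node replicate 4. The spleen libraries of VQ-D2 had 1.71 and 1.75. The spleen effect was tested for a difference between t-VK12653 and VQ-D1: 0 of 45 passed by edgeR or by DESeq2 (0% of all genes by edgeR), and 5 had an unadjusted p under 0.05, all with a lower effect in t-VK12653. The share of all genes with an unadjusted p under 0.05 is not set beside these site counts. Nothing is therefore read from the unadjusted counts or from their common direction.

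Other genes of the pathway, 76 from a list that holds none of the 45, moved in the same order of lines. In VQ-D5 53 rose and 6 fell, while VQ-D2 had 49 and 7, VQ-D1 44 and 13, t-VK12653 27 and 16 and VQ-D4 22 and 19, each beside the background shares given above for that line. The VQ-D4 shares were near its background of 27.5% up and 26.9% down. Without Control replicate 2 these were 52 and 5 in VQ-D5, 50 and 7 in VQ-D2, 46 and 13 in VQ-D1, 31 and 12 in t-VK12653 and 31 and 17 in VQ-D4. The VQ-D4 shares were then 40.8% and 22.4%, beside 24.9% and 25.5% of all genes. Shmt1, which feeds folate carbon to thymidylate synthesis, averaged 5.36 ± 1.54 CPM in the controls and 151 ± 3.11 in VQ-D5, the largest rise of the list there (4.65 (SE 0.22, adjusted p = 1.59e-13)). Cdc7, the kinase that fires origins, averaged 10.3 ± 2.53 CPM in the controls, 27.3 ± 2.59 in VQ-D2, 26.6 ± 3.4 in VQ-D5 and 2.27 ± 2.18 in VQ-D4. Its log2 difference between VQ-D5 and VQ-D4 was 3.69 (SE 0.38, adjusted p = 3.99e-08). Tfdp1, the partner of E2F factors on DNA, averaged 143 ± 2.58 CPM in VQ-D5, 109 ± 7.07 in VQ-D2, 29.5 ± 10.2 in the controls and 16.2 ± 1.35 in t-VK12653. Hells, a chromatin remodeller of replicating cells, rose in VQ-D5 from 21.4 ± 9 to 128 ± 15.4 CPM (2.62 (SE 0.26, adjusted p = 3.5e-08)).

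Of the 19 genes of E2F, RB and CDK2 control on that list, 12 rose and 3 fell in VQ-D5, 10 and 3 in VQ-D2, 9 and 4 in VQ-D1, 7 and 7 in t-VK12653 and 6 and 6 in VQ-D4. Of all genes, 31.2% rose and 32.5% fell in VQ-D5, 29.6% and 27.8% in VQ-D2 and 29.7% each way in VQ-D1. The shares were 28.8% and 28.1% in t-VK12653 and 27.5% and 26.9% in VQ-D4, where 6 and 6 were near the background. Without Control replicate 2, t-VK12653 had 8 and 4 and VQ-D4 7 and 4. Beside these, 25.6% of all genes rose and 26.6% fell in t-VK12653, and 24.9% and 25.5% did in VQ-D4. Cdkn1a and Rb1 were named for the size of their change. Cdkn1a encodes the CDK inhibitor p21 and averaged 3.72 ± 2.13 CPM in the controls, 60.4 ± 8.53 in VQ-D1, 27.3 ± 9.73 in VQ-D4, 23 ± 7.97 in VQ-D5, 18.4 ± 2.48 in t-VK12653 and 2.56 ± 2.05 in VQ-D2. Its log2 difference between VQ-D2 and VQ-D1 was -4.99 (SE 0.42, adjusted p = 1.06e-08). Rb1, which encodes the retinoblastoma protein (chr14:73183673-73325822), had 8 reads in all over the 4 t-VK12653 libraries. It averaged 0.442 ± 0.336 CPM there, against 122 ± 14.9 in the controls, 122 ± 19.3 in VQ-D5, 262 ± 35.9 in VQ-D1, 147 ± 25.2 in VQ-D4 and 127 ± 18.5 in VQ-D2. The t-VK12653 libraries were all under 1 CPM and no other library was under 99.4 CPM. The log2 fold change in t-VK12653 against control was -7.95 (SE 0.27, adjusted p = 1.78e-15), and for the VQ lines against t-VK12653 it was 8.30 (SE 0.24, adjusted p = 2.41e-17).

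Genes of mitosis, a list of 12 taken for comparison, rose for 12 in VQ-D2 and in VQ-D5, 8 in VQ-D1, 7 in VQ-D4 and 4 in t-VK12653, and none fell by edgeR. The shares of all genes that rose in these lines were 29.6%, 31.2%, 29.7%, 27.5% and 28.8%, so that 4 of 12 in t-VK12653 was near the background. Without Control replicate 2 the rises were 11 in VQ-D1, 12 in VQ-D4 and 9 in t-VK12653, and 12 as before in VQ-D2 and VQ-D5. Their median log2 fold change was 2.65 in VQ-D5, 0.78 in VQ-D4 and 0.46 in t-VK12653, beside 1.70, 0.22 and 0.50 for the 45 replication genes. No test was made of the difference between the lists.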

How the data were processed

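Cells labelled CD138+B220- of 3 controls and 5 transplanted lines were sequenced as total RNA (23 libraries). Per the labels' protocols, RNA was extracted with a micro column kit and libraries came from a stranded total RNA kit for picogram input. STAR, featureCounts and DESeq2, with builds GRCm38 and mm10, stand in the submitters' processing notes. For their versions, the annotation and the strand setting, the sources used here give nothing. The count column holds whole, unnormalized reads per gene, as deposited by the authors. The TPM column holds the authors' values scaled to gene length and depth, used here only to compare levels between genes. The FPKM column was deposited by the authors too and was not used.

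Counts were tested in R 4.3.3 with edgeR 4.0.16 (TMM scaling, filterByExpr with a count minimum of 10 and a total minimum of 15, robust quasi-likelihood F-test, Benjamini-Hochberg adjustment over all 12867 genes tested, threshold 0.05). The fit of the 23 libraries had terms for group and tissue. VQ against control used counts summed per line (13870 genes, no tissue term), and the difference in the spleen effect used the 8 libraries of VQ-D1 and t-VK12653 (11846 genes). CPM values are TMM-scaled. Alternatives changed the scaling, filter, tool (DESeq2 1.42.0), terms, sites or libraries, and the scripts were tested on simulated data. The replicate numbers do not pair libraries: correlations of deviations between libraries with the same number had a median of 0.018. Replicates all differed by more than sampling noise (chi-square over its degrees of freedom 4.57 to 22.3).

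The genes, lists and tests were chosen with earlier results of these data known. Values for each library were given, in each role, for the gene with the highest mean CPM and the gene with the smallest p among the lines, for genes called against the majority of their role, and for the largest called rise and fall in each pair of VQ lines and in each comparison of sites. Pathway genes were named when among the 4 called genes with the largest change in a comparison and at 10 CPM or more in the higher group. Gene positions are from GENCODE M21 on GRCm38.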

Additional observations from a re-analysis of the deposited data

Results flagged for a closer look

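For 7 genes the change against control passed the test upwards in at least 1 line and downwards in another. A difference between lines was then tested by edgeR with adjustment over all genes. Because the genes were picked by opposite calls in the same libraries, these tests could hardly fail, and their p-values add no support. Between VQ-D5 and VQ-D4 the log2 difference was 2.95 for Tyms (adjusted p = 3.64e-08), 2.77 for Rfc5 (1.6e-11) and 2.08 for Mcm7 (2.53e-07). Between VQ-D2 and VQ-D4 it was 2.08 for Pola1 (adjusted p = 9.1e-09) and 2.05 for Pold1 (6.3e-09). For Mcm5 and Gins3 the mean of all VQ lines, including lines without a called rise, was set against t-VK12653. That log2 difference was 1.67 for Mcm5 (adjusted p = 5.69e-06) and 1.4 for Gins3 (1.77e-05). The falls against control of Tyms, Rfc5, Mcm7 and Pold1 in VQ-D4 and of Mcm5 and Gins3 in t-VK12653 were lost without Control replicate 2, while that of Pola1 in VQ-D4 kept its call (-0.75, adjusted p = 0.00387).

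In 10 of 130 groups examined, for 25 genes and the median of the 45 in each of the 5 lines, 1 library stood apart from the other 3 of its line, where chance alone gives about 1 in 20 groups. VQ-D1 replicate 1 was low for Mcm10 (45.4 CPM, others 72.4 to 75.4), Rrm1 (104, others 133 to 139), Chaf1a (75, others 92.3 to 95.5) and Clspn (77.7, others 104 to 106). It is the library of its line with the most neutrophil marker RNA (1039 CPM), and the part of that RNA was not tested. In t-VK12653 replicate 3 was high for Rrm1 (145 CPM, others 125 to 128) and Clspn (46.8, others 25 to 28.2). VQ-D2 replicate 2 was high for Pold2 (154 CPM, others 98.3 to 105). In VQ-D5 replicate 3 was low for Pole (117 CPM, others 132 to 133), replicate 4 high for Chaf1a (117, others 93.2 to 97.1) and replicate 1 high for Rfc4 (114, others 98 to 99.4).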

How the results depend on the processing

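Over 38 settings, 23 of which left out 1 library, 314 of 401 called results of the 45 genes (78.3%) kept direction and call throughout, and none reversed. Genes lower in VQ-D1 against control were 1, and 2 with RLE scaling and 2 with DESeq2 (1 to 2 over left-out libraries). In bone marrow alone VQ-D4 had 3 higher and 4 lower (left-out libraries: 8 to 16 and 3 to 8). Genes lower in t-VK12653 were 1 with no filter, 1 without abundant non-coding RNA, 0 per recipient and 0 in bone marrow alone (0 to 2). VQ line sums against control gave 22 higher with DESeq2, 2 in bone marrow alone, 2 without VQ-D2, 31 without VQ-D4, 3 without VQ-D5 and 0 to 18 over left-out libraries. Averaging the lines within the model of the 23 libraries gave 39 higher and 1 lower. Genes lower in VQ-D2 than VQ-D1 were 0 with no tissue term and 0 per recipient (0 to 2). Genes higher in VQ-D4 than VQ-D1 were 1 with no tissue term and 0 per recipient (1 to 2). In VQ-D5 against VQ-D2 2 were higher and 1 lower per recipient (5 to 15 and 2 to 3), and in VQ lines against t-VK12653 3 to 7 were lower over left-out libraries. Summing per recipient, by the number in each tumour table name, leaves fewer samples, and bone marrow alone leaves out VQ-D2 and keeps 1 library of VQ-D4, taken to vary like the other groups. Other causes were not tested. For VQ line sums, RLE scaling moved the median of all genes by over 0.1 (from 0.19 to 0.07). The share of higher among all called genes moved from 59.7% to 47.4% when the lines were averaged within the model of the 23 libraries.

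With the replicate number as a block, which does not pair these samples, genes lower in t-VK12653 than control were 0 and genes lower in VQ-D2 than VQ-D1 were 0. Against control VQ-D1 had 33 higher, VQ-D2 43, VQ-D4 12, VQ-D5 42 and t-VK12653 21, and VQ-D5 had 9 higher than VQ-D2. Of the 23 libraries 7 correlated best with a library of their own number.

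Depth limits the least abundant genes: Orc1, Gins2, Gins3 and Pole2 averaged 3.67 to 4.71 CPM in t-VK12653.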

Other observations

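The neighbours of Rb1 on chromosome 14 were looked at after its values were seen. Lpar6, which lies within Rb1 on the other strand, had 0 reads in all 4 t-VK12653 libraries, which allows up to 0.181 CPM over the group (3 counts, counting error only), and averaged 6.55 to 26.5 CPM in the other groups. Rcbtb2, whose exons also overlap those of Rb1, averaged 0.63 CPM in t-VK12653 and 29.9 to 175 CPM in the other groups. Farther genes on the same chromosome were expressed in t-VK12653, with Itm2b at 5626 CPM, Med4 at 26.4 CPM and Sucla2 at 18.4 CPM. In the other groups Itm2b averaged 845 to 4252 CPM, Med4 25.6 to 37.9 and Sucla2 33.9 to 50.8, so Sucla2 was lowest in t-VK12653. Cysltr2 averaged 2.49 CPM in t-VK12653, 14.4 in the controls and 0.218 to 3.08 in the VQ lines.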
